A study of Homo sapiens with 37 samples.

Results

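Total RNA from cells carrying APEX-eIF4E was compared with total RNA from cells carrying APEX-GFP. The comparison is between 4 of the 37 libraries of the series, picked out by their labels: 2 inputs of APEX-eIF4E cells and 2 inputs of APEX-GFP cells. Both groups were HEK293T cells, a human embryonic kidney line, under naive conditions without stress. Both groups went through the same labelling, with biotin-phenol at 500 µM for 30 min and H2O2 at 1 mM for 1 min, so neither group is unlabelled. APEX is a peroxidase that attaches biotin-phenol to RNA near the protein it is fused to. An input is RNA of such cells, and a pulldown is the RNA bound to streptavidin beads. The series also holds, from naive cells, 2 inputs each for C1-APEX, APEX-eIF4A and APEX-CBX1, used here to place the eIF4E and GFP inputs, and 2 pulldowns for each construct. The labels used here do not say how the fusions were introduced, whether a line is 1 clone, or whether replicates came from separate cultures, so the p-values below reflect the variation among these libraries and may cover technical variation alone. No label gives a batch or a sequencing date.

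eIF4E is the protein that binds the cap at the start of an mRNA and, with the helicase eIF4A and the scaffold eIF4G, brings the mRNA to the ribosome. Its activity is limited by binding proteins that respond to growth signalling, and mRNAs differ in how strongly their translation depends on it. GFP has no such partner in human cells. Steady-state RNA, the quantity measured in an input, reflects both synthesis and decay, and an input does not record translation. In a total RNA library a few very abundant RNAs take most of the reads, so less abundant RNAs are measured with far fewer counts.

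The counts are given per versioned Ensembl gene ID, and neither the files nor the reference tables used here pair these IDs with gene names. The level of the gene behind the eIF4E fusion, markers of the cell line and gene groups by function were therefore not analysed here, and no role is given to any ID. Among called IDs with a mean of at least 20 counts over the 4 inputs and no overlap between the groups, the 2 with the largest increase and the 2 with the largest decrease are given by ID. The others, some of which had fewer counts and larger fold changes, are given by counts and ranges.

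The eIF4E inputs held 1486613 and 2149612 counts, and the GFP inputs 2270911 and 2341595. At least 1 count was found for 17430 and 18288 IDs in the eIF4E inputs, against 19158 and 18959 IDs in the GFP inputs. Brought to the depth of the shallowest naive library, 1419968 counts, the expected numbers were 17275 and 16855 IDs in eIF4E inputs and 17513 and 17241 IDs in GFP inputs, so most of the gap in detected IDs went with depth. The 10 IDs with the highest counts over the naive inputs took 73.0% and 75.2% of counts in the eIF4E inputs and 68.7% and 69.5% in the GFP inputs. Both eIF4E values lay above both GFP values, but with 2 libraries a side a 2-sided exact permutation test cannot give a p below 0.333. This left 401935 and 534011 counts in eIF4E inputs, against 711098 and 713366 in GFP inputs, for every other ID, so levels in eIF4E inputs rest on fewer counts. Replicates correlated at 0.927 for the eIF4E inputs and at 0.956 for the GFP inputs over 10019 IDs (log2 CPM, where CPM is the scaled count per 1000000 counts; IDs are not independent replicates). The median gap between replicates was 0.299 log2 units in eIF4E and 0.226 in GFP.

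The comparison asked which RNAs differed in level between the cells carrying the fusions. An increase or a decrease was called in 1261 of 10019 tested IDs, 12.6% of those tested (edgeR quasi-likelihood test, Benjamini-Hochberg adjusted p under 0.05). Of these, 651 were higher in eIF4E inputs (6.5% of tested IDs) and 610 were lower (6.09%). The 651 higher IDs had a median log2 fold change of 0.94, with quartiles of 0.67 and 1.30. For the lower IDs it was -0.84, with quartiles of -1.13 and -0.65. Over every tested ID the median was 0.00 and the quartiles were -0.36 and 0.38. In bulk RNA, fewer cells expressing an RNA and less of it per cell cannot be told apart. The count of 1261 was 556 without eIF4E input replicate 2, 836 without GFP input replicate 1 and 785 without GFP input replicate 2, in fits with fewer libraries. DESeq2 called 492 IDs, all among the 1261, but gave an adjusted p to only 3025 IDs. A fit with the more variable pulldowns added called 346 of 12427 tested IDs.

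**Figure D1:**
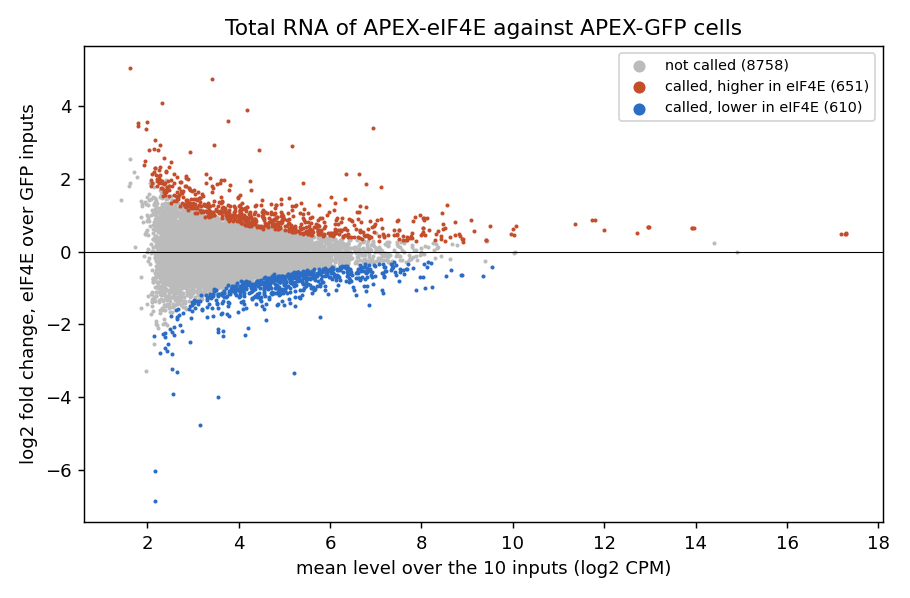
Each point is 1 of 10019 tested IDs, with its mean level over the 10 naive inputs in log2 CPM on the x axis and the log2 fold change of eIF4E over GFP inputs on the y axis. The 651 higher and 610 lower calls lie on both sides of 0 at most levels, and small changes were called only where the level was high.

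Most changes were moderate. A change of at least 2-fold was seen in 518 of the called IDs, 41.1% of them, with 298 higher and 220 lower in eIF4E inputs. At least 4-fold changes numbered 76, with 46 higher and 30 lower, and at least 8-fold changes 19, with 11 higher and 8 lower. The CPM of the eIF4E and GFP inputs overlapped for 6 of the 651 higher IDs and for 0 of the 610 lower IDs. Among all tested IDs the groups did not overlap in 54.4%, with eIF4E higher in 27% and lower in 27.4%, so the lack of overlap by itself sets little apart.

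The balance of directions depended on scaling. The fit used TMM, which sets the typical ID to no change, and with library size in its place the median over all tested IDs moved to -0.38 on the log2 scale. Called IDs then numbered 2485, of which 8.45% were higher in eIF4E inputs, against 51.6% with TMM. All changes given here are therefore relative to the TMM reference. With library sizes summed without the 10 highest IDs, a setting chosen after the data were seen, 32.4% of 1461 calls were higher.

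The share of IDs called rose with level, and so did the precision of the fold changes. Among 5778 IDs with a mean level under 4 log2 CPM, 6.27% were called, with a median standard error of 0.40 log2 units and a smallest called change of 0.85. Among 3633 IDs from 4 to 6 log2 CPM, 16.7% were called. Among 522 IDs from 6 to 8 log2 CPM, 43.7% were called, 104 higher and 124 lower. Among 86 IDs at 8 log2 CPM and over, 76.7% were called, with a median standard error of 0.09 and a smallest called change of 0.26. For IDs of low level, changes under about the smallest called size were thus not detectable at this depth. Directions were uneven at both ends of the range. At 8 log2 CPM and over, 53 IDs were higher in eIF4E inputs and 13 were lower, and under 4 log2 CPM 239 were higher and 123 were lower. Between 4 and 6 log2 CPM the balance went the other way, with 255 higher and 350 lower.

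The most abundant RNAs belonged to the higher side under TMM. Of the 10 highest IDs, 8 were called higher and 0 lower in eIF4E inputs, with log2 fold changes from -0.01 to 0.67 and a median of 0.50. With library size in place of TMM, 4 were called higher and 1 lower, with a median of 0.12. For 8 of these 10 IDs another ID had counts within 10% of theirs in all 10 naive inputs, so they may not be separate measurements; whether near-identical copies shared reads was not tested. Over 814 IDs with a mean of at least 100 counts in the inputs, 31 had such a partner. They made up 20 of the 53 higher IDs at 8 log2 CPM and over.

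Outside the 10 highest IDs, the higher IDs together took 31.0% and 33.7% of the remaining counts in eIF4E inputs and 21.7% and 21.7% in GFP inputs. The lower IDs took 7.95% and 7.47% in eIF4E inputs and 13.5% and 13.6% in GFP inputs. These sums describe IDs chosen by this comparison. In the inputs of the other constructs, the same higher IDs took 26.9% to 30.1% of the remaining counts in C1 and eIF4A inputs and 21.7% to 22.9% in CBX1 inputs. The lower IDs took 9.96% to 10.1% in C1 and eIF4A inputs and 13.3% to 13.4% in CBX1 inputs. CBX1 inputs thus lay beside GFP inputs in both sums, and C1 and eIF4A inputs between them and the eIF4E inputs.

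Among called IDs with a mean of at least 20 counts over the 4 inputs and no overlap between the groups, the largest increase belonged to ENSG00000125740.12. It had 30.4 and 44.1 CPM in the eIF4E inputs, from 42 and 78 counts, against 1.91 and 0.768 CPM in the GFP inputs, from 5 and 2 counts. The groups did not overlap, and the means were 37.3 ± 9.63 CPM in eIF4E and 1.34 ± 0.81 CPM in GFP inputs (SD, n = 2 each). The log2 fold change was 4.75 ± 0.40 (SE; edgeR adjusted p = 2.01e-12). It was 5.49 without GFP input replicate 1 and 4.26 without GFP input replicate 2 (log2 fold changes), with 2 and 5 counts left in GFP inputs. In the other inputs it measured 7.86 and 15.6 CPM for C1, 1.68 and 4.74 CPM for eIF4A and 1.05 and 1.51 CPM for CBX1. The eIF4E inputs were therefore the highest of the 10, followed by C1, which overlapped with neither eIF4E nor GFP. eIF4E over C1 gave a log2 fold change of 1.73 ± 0.30 (SE; edgeR adjusted p = 0.000228). GFP over C1 gave -3.02 ± 0.53 (SE; edgeR adjusted p = 0.000221). C1 over eIF4A gave 1.60 ± 0.47, with no overlap between the libraries, but missed the threshold (SE; edgeR adjusted p = 0.0678). GFP over eIF4A and GFP over CBX1 did not pass the test either (edgeR adjusted p = 0.245 and 0.993).

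ENSG00000229944.3 had the next largest increase among these IDs. It measured 75.4 and 80.2 CPM in eIF4E inputs, from 104 and 142 counts, and 4.96 and 5.37 CPM in GFP inputs, from 13 and 14 counts. The log2 fold change was 3.90 ± 0.24 (SE; edgeR adjusted p = 4.58e-17), and the means were 77.8 ± 3.42 and 5.17 ± 0.29 CPM in eIF4E and GFP inputs (SD, n = 2 each). Its level was low in the inputs of all the other constructs, at 2.10 and 5.44 CPM for C1, 4.21 and 4.31 CPM for eIF4A and 5.23 and 6.06 CPM for CBX1. Here both eIF4E inputs stood above the 8 others, which ranged from 2.10 to 6.06 CPM. eIF4E over the mean of the C1, eIF4A and CBX1 inputs gave a log2 fold change of 4.12 ± 0.20, and GFP over the same mean gave 0.22 ± 0.35 (SE; edgeR adjusted p = 0.837 for GFP).

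The largest decrease under the same limits belonged to ENSG00000092067.5. It had 1.45 and 0 CPM in the eIF4E inputs, from 2 and 0 counts, against 22.9 and 15.4 CPM in the GFP inputs, from 60 and 40 counts. The fitted log2 fold change was -4.77 ± 0.61 (SE; edgeR adjusted p = 1.60e-07). With 2 counts in eIF4E against 100 in GFP inputs, the ratio of eIF4E to GFP was 0.0332, with an exact 95% interval of 0.00396 to 0.123 that covers counting error only. The fit gave -8.25 without eIF4E input replicate 1, which leaves a library with 0 counts, and -3.67 without eIF4E input replicate 2. This ID had 0 counts in all 4 C1 and CBX1 inputs, which allows up to 3 counts, or 1.51 to 2.04 CPM, per library. The eIF4A inputs measured 9.25 and 16.8 CPM. The eIF4E inputs thus shared a near-zero level with C1 and CBX1, and the GFP inputs a higher level with eIF4A. GFP over eIF4A did not pass the test, at a log2 fold change of 0.45 ± 0.30 (SE; edgeR adjusted p = 0.451).

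ENSG00000087088.18 followed, with 0 and 1.69 CPM in eIF4E inputs, from 0 and 3 counts, and 15.6 and 16.5 CPM in GFP inputs, from 41 and 43 counts. The fitted log2 fold change was -3.99 ± 0.56 (SE; edgeR adjusted p = 8.91e-07). The ratio of eIF4E to GFP over both replicates was 0.0593, with an exact 95% interval of 0.0120 to 0.179 for counting error. Without eIF4E input replicate 2 the fit gave -7.96, resting on 0 counts, and without eIF4E input replicate 1 it gave -3.20. The other constructs measured 7.34 and 10.2 CPM for C1, 10.9 and 6.03 CPM for eIF4A and 13.1 and 18.7 CPM for CBX1. Both eIF4E inputs were below the 8 others. eIF4E over the mean of the C1, eIF4A and CBX1 inputs gave a log2 fold change of -3.34 ± 0.58 (SE; edgeR adjusted p = 7.24e-05).

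**Figure D2:**
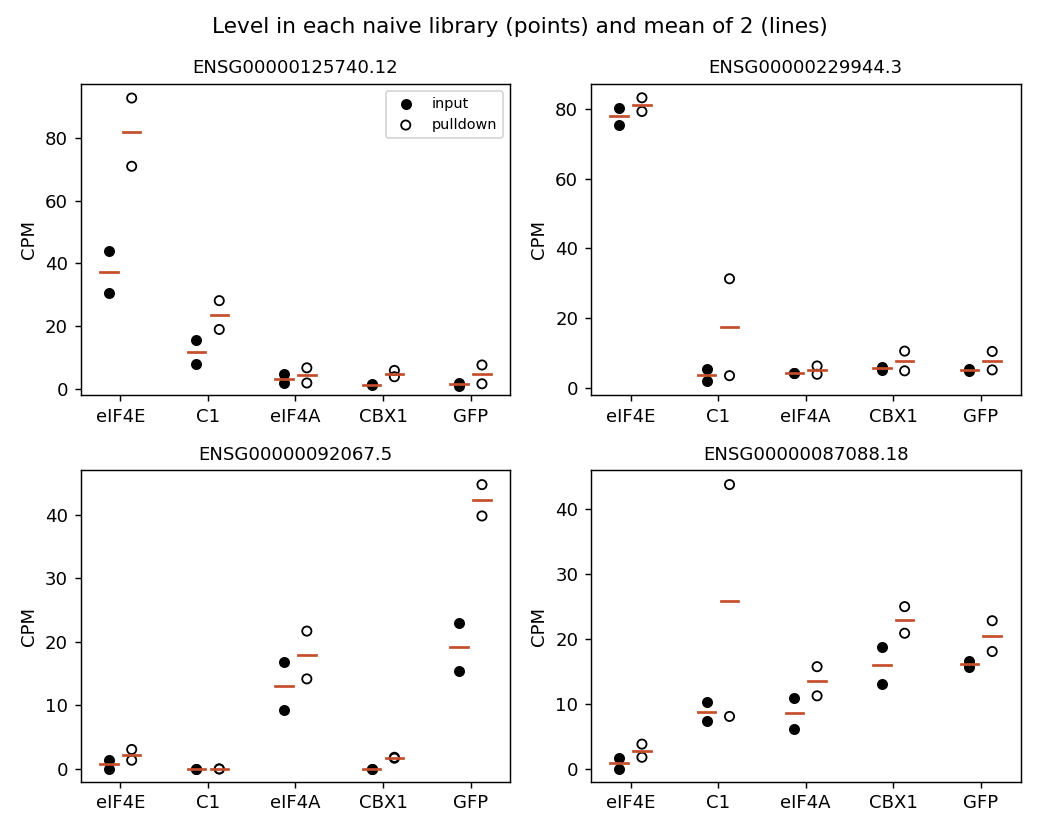
CPM of 4 IDs (y axis, linear) in each naive library, by construct on the x axis; filled points are inputs, open points pulldowns, and lines mark the mean of 2 libraries. ENSG00000125740.12 and ENSG00000229944.3 were highest in eIF4E libraries, ENSG00000087088.18 was lowest there, and ENSG00000092067.5 was high in GFP and eIF4A libraries.

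These 4 IDs show more than 1 pattern over the constructs, so the next comparisons asked whether the eIF4E or the GFP inputs stood apart. The eIF4E inputs differed from the mean of the C1, eIF4A and CBX1 inputs in 802 IDs, 8% of those tested, with 476 higher (4.75%) and 326 lower (3.25%). The GFP inputs differed from the same mean in 290 IDs, 2.89% of those tested, with 156 higher (1.56%) and 134 lower (1.34%; edgeR). These comparisons share libraries with each other and with that of eIF4E over GFP, so their calls are given side by side. The difference between the counts was not tested, and it depended on the setting. Scaled by library size, the eIF4E count was 1044 (205 higher, 839 lower) and the GFP count 808 (775 higher, 33 lower). DESeq2 gave 285 and 85 calls for eIF4E and GFP, out of 4564 and 3538 IDs with an adjusted p. A fit with the pulldowns added gave 172 and 11 calls out of 12427 tested IDs. Without eIF4E input replicate 2 the eIF4E count was 188 and without eIF4E input replicate 1 it was 505. Without GFP input replicate 1 or 2 the GFP count was 68 or 50, and it was 175 without CBX1 input replicate 1.

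Between single constructs, the eIF4E inputs differed from CBX1 inputs in 1360 IDs (13.6%), from eIF4A inputs in 619 (6.18%) and from C1 inputs in 248 (2.48%). The GFP inputs differed from CBX1 inputs in 110 IDs (1.1%), from C1 inputs in 469 (4.68%) and from eIF4A inputs in 584 (5.83%). Correlations of log2 CPM over 10019 IDs were 0.885 to 0.892 between eIF4E and GFP inputs, 0.900 to 0.909 between eIF4E and C1 inputs and 0.935 to 0.939 between GFP and CBX1 inputs. Both rankings thus put eIF4E nearest to C1 and GFP nearest to CBX1. The C1 inputs held 409888 and 537391 counts outside the 10 highest IDs, fewer than the GFP inputs. The CBX1 inputs held 533801 and 541894 such counts, and the eIF4A inputs 352586 and 685516. How far depth set the number of calls against each construct was not tested.

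**Figure D3:**
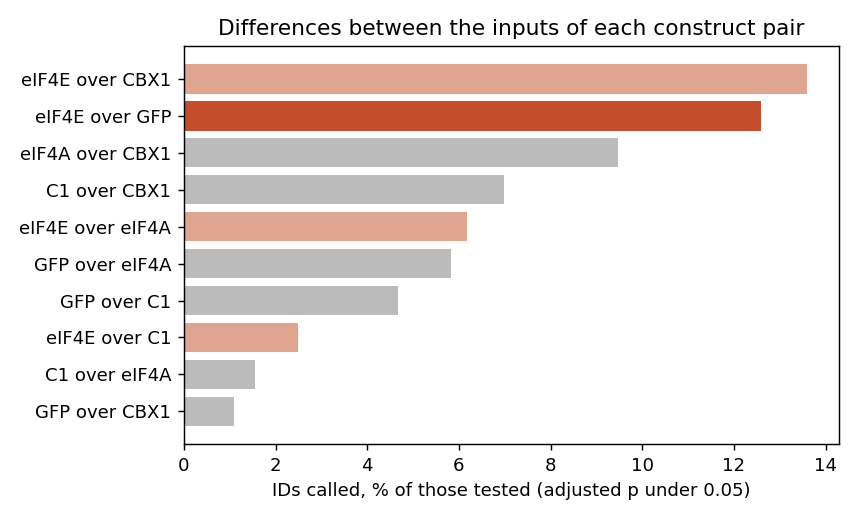
Bars give the share of tested IDs called (x axis, % of 10019 IDs) for each pair of constructs, inputs only; dark red marks eIF4E over GFP and light red the other pairs with eIF4E. eIF4E over CBX1 (13.6%) and eIF4E over GFP (12.6%) had the highest shares, and GFP over CBX1 (1.1%) the lowest.

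A count by ranges, without a test, put eIF4E first. It used the same TMM-scaled CPM and was not repeated with other scaling. Both eIF4E inputs lay above or below all 8 other naive inputs in 1376 IDs, 13.7% of those tested, with 693 above (6.92%) and 683 below (6.82%). This was so for 1097 IDs (10.9%) in CBX1 inputs, 942 (9.4%) in eIF4A inputs, 603 (6.02%) in C1 inputs and 603 (6.02%) in GFP inputs. Among the 1261 IDs called between eIF4E and GFP, the eIF4E inputs lay outside all others in 604 (47.9%) and the GFP inputs in 243 (19.3%), with 74 IDs in both counts. For the 46 IDs at least 4-fold higher, eIF4E lay outside in 29 and GFP in 9. For the 30 IDs at least 4-fold lower, eIF4E lay outside in 22 and GFP in 5. These called IDs were chosen because eIF4E and GFP differ, which by itself places either group at an extreme.

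The inputs of the other constructs were then placed on the scale from GFP to eIF4E for each called ID. Over the 651 higher IDs, the median level above GFP inputs was 0.90 log2 units in eIF4E, 0.41 in C1, 0.47 in eIF4A and 0.10 in CBX1 inputs. Over the 610 lower IDs it was -0.82 in eIF4E, -0.41 in C1, -0.30 in eIF4A and -0.06 in CBX1 inputs. CBX1 inputs lay nearer to GFP than to eIF4E in 557 of the 651 higher and 538 of the 610 lower IDs. C1 inputs were nearer to eIF4E in 295 of the higher and 323 of the lower IDs, and eIF4A inputs in 328 and 235. The choice of the IDs draws any other construct towards a place between the ends, so these values are descriptive.

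**Figure D4:**
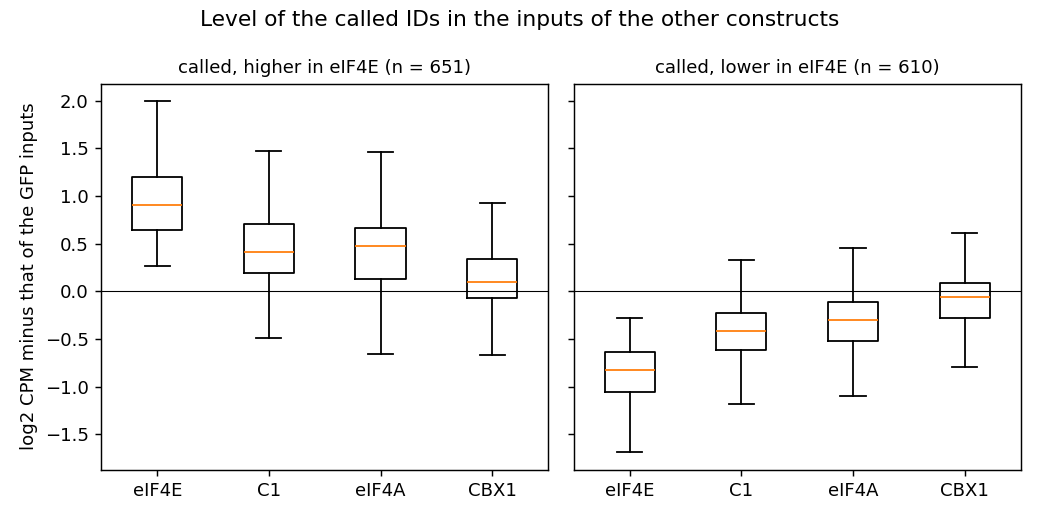
Boxes give the median and quartiles, over the called IDs, of log2 CPM minus that of the GFP inputs (y axis) for the inputs of each construct; whiskers reach the last value within 1.5 times the box, and points beyond are not drawn. Left, 651 IDs higher in eIF4E inputs; right, 610 lower. C1 and eIF4A lie between eIF4E and 0, the level of GFP, and CBX1 lies near 0.

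The same comparison was made in the pulldowns, whose libraries the fit of the 10 inputs did not use. No label says whether inputs and pulldowns came from the same cultures, and a pulldown also depends on what each fusion labelled. Of 12714 IDs tested between eIF4E and GFP pulldowns, 168 were called (1.32%), 86 higher (0.676%) and 82 lower (0.645%) in eIF4E pulldowns (edgeR). The number fell to 13 to 22 when any 1 of the 4 pulldowns was left out, but was 416 with DESeq2, 532 with only these 4 pulldowns, 678 with all 20 naive libraries and 262 without a count filter. DESeq2 gave an adjusted p to 7248 IDs, fewer than the 12714 tested by edgeR. With library size in place of TMM, 162 IDs were higher and 13 lower in eIF4E pulldowns. Of these 168 IDs, 145 were also called between the inputs in the same direction and 0 in the opposite one. The 145 are 86.3% of the pulldown calls and 11.5% of the input calls. Over all 10019 IDs tested in inputs, 12.6% were called there. Of the 9998 IDs tested in both fractions, 81 were called higher and 81 lower in eIF4E pulldowns. The overlap was not counted for the other settings. Variation between replicates was estimated at 25.4% in pulldowns and 6.64% in inputs (edgeR common coefficient of variation), so the pulldown test rested on a wider spread. Each estimate is shared by all constructs. Replicate pulldowns correlated at 0.750 for C1, against 0.897 for GFP, 0.913 for eIF4E, 0.927 for CBX1 and 0.949 for eIF4A. The estimate therefore does not describe the eIF4E and GFP pulldowns alone.

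Direction was shared more widely than calls were. Of the 651 IDs higher in eIF4E inputs, 649 were tested in pulldowns, and 557 (85.8%) were higher there too. Of the 610 lower IDs, 583 (95.6%) were lower in eIF4E pulldowns. Among all 9998 IDs tested in both, 49.4% were higher and 50.6% lower in eIF4E pulldowns. These directions are relative to TMM in each fraction. With library size in its place, the median log2 fold change over tested IDs was -0.38 in inputs and 0.28 in pulldowns. Shared directions were not recounted with that scaling. In pulldowns the median log2 fold change was 0.58 for the IDs higher in inputs, against 0.94 in the inputs themselves, and -0.60 for the lower IDs, against -0.84. These IDs were chosen by the inputs, which can enlarge their input values. Among the higher IDs, the share with the same direction was lowest for abundant RNAs. At 8 log2 CPM and over, 32 of 53 IDs higher in eIF4E inputs were also higher in eIF4E pulldowns, with a pulldown median of 0.17, whereas 13 of 13 lower IDs were lower there. From 4 to 6 log2 CPM the numbers were 228 of 255 higher and 333 of 350 lower IDs.

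**Figure D5:**
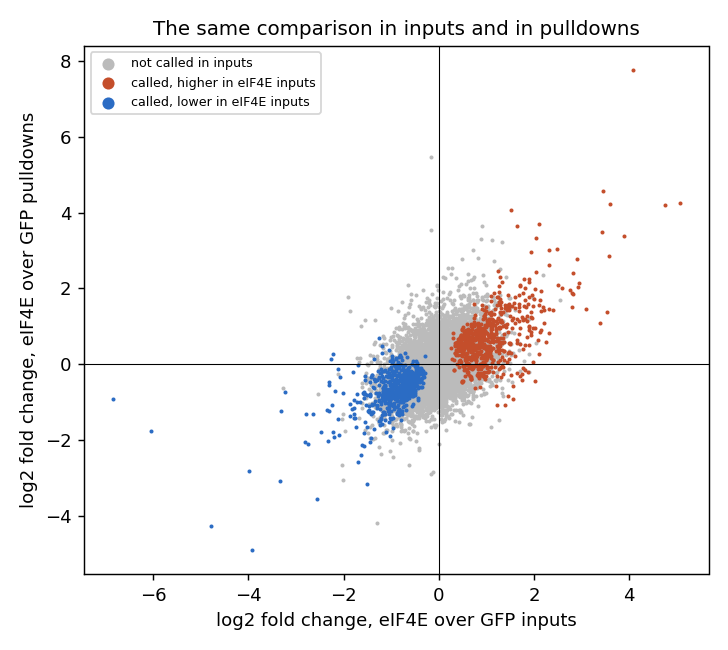
Each point is an ID tested in both fractions, with the log2 fold change of eIF4E over GFP in inputs (x axis) and in pulldowns (y axis). Of the IDs called higher in inputs (red), 557 of 649 lie above 0 on the y axis, and of those called lower (blue), 583 of 610 lie below.

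The 4 IDs described above kept their direction in pulldowns. ENSG00000125740.12 measured 92.8 and 71.0 CPM in eIF4E pulldowns and 7.55 and 1.55 CPM in GFP pulldowns, a log2 fold change of 4.19 ± 0.54 (SE; edgeR adjusted p = 0.000638). ENSG00000229944.3 measured 83.2 and 79.2 CPM in eIF4E pulldowns, close to its levels in eIF4E inputs, and 10.5 and 5.17 CPM in GFP pulldowns. Its log2 fold change was 3.39 ± 0.62 (SE; edgeR adjusted p = 0.0124). ENSG00000092067.5 measured 3.06 and 1.37 CPM in eIF4E pulldowns and 44.7 and 39.8 CPM in GFP pulldowns. The log2 fold change was -4.26 ± 0.54 (SE; edgeR adjusted p = 0.000638), and it rested on 7 and 4 counts in eIF4E against 77 and 77 counts in GFP pulldowns. ENSG00000087088.18 measured 1.75 and 3.77 CPM in eIF4E pulldowns and 18.01 and 22.7 CPM in GFP pulldowns, a log2 fold change of -2.82 ± 0.66 (SE; edgeR adjusted p = 0.0435). In each of the 4 IDs, the eIF4E and GFP pulldowns did not overlap. The share of all tested IDs without overlap was not counted in pulldowns. In inputs it was 54.4%, so the lack of overlap sets little apart.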

How the data were processed

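The authors deposited raw whole-number counts for 60483 versioned Ensembl gene IDs. Per the submitters' processing notes these counts were made with cutadapt, HISAT2 and featureCounts on GRCh38; tool versions, strandedness and the rule for multi-mapping reads are not stated there, so overlapping or near-identical genes are uncertain. Groups and replicates came from titles; a column name that stands in the descriptions of 2 samples was taken for replicate 2 of the naive eIF4A inputs. The stress table was not used here.

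The 10 naive inputs were fitted together with edgeR 4.0.16 in R 4.3.3 (filterByExpr, TMM, robust glmQLFit, 2-sided quasi-likelihood F test, Benjamini-Hochberg adjustment), and pulldowns in a fit of their own. The inputs were fitted without pulldowns because these vary more. SE is the size of the log2 fold change divided by the square root of F. The step was tested on counts simulated with its own fitted scaling and spread. That test does not show whether these suit the data. Log2 CPM used a prior count of 2. Intervals and low counts cover counting error only.

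Of the IDs, 0 matched a name in the reference tables, so the gene lists, marker lists, the EIF4E check and the part of the naming rule that needs symbols could not be applied. The rule as applied kept called IDs with a mean of at least 20 counts over the 4 libraries and no overlap between the groups. It took the 2 with the largest fold change in each direction, cut from a larger number planned. The comparison, lists and rule were chosen with earlier results of these data known. Deviations of same-numbered inputs correlated at -0.07 to 0.07 over 1673 IDs, and the labels link them to nothing shared, so replicate numbers were not treated as pairs. Replicate inputs differed by more than counting noise (chi-square per ID 1.31 to 1.89), and each library was counted once.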

Additional observations from a re-analysis of the deposited data

How the results depend on the processing

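The count of 1261 IDs for eIF4E over GFP inputs was 2485 with library size in place of TMM (210 higher, 2275 lower), 492 with DESeq2 1.42.0, which gave 3025 IDs an adjusted p, and 346 with all 20 naive libraries, whose pulldowns vary more; 492 and 338 of these were among the 1261. It was 556 to 867 when 1 of the 4 inputs was left out, lowest without eIF4E input replicate 2, with 836 and 785 without GFP input replicate 1 and 2; such fits have fewer libraries. For eIF4E over the CBX1, C1 and eIF4A inputs, the 802 became 285 with DESeq2 and 172 with all 20 libraries, and 188 to 797 with 1 input left out. Higher IDs were 19.6% of calls with library size in place of TMM, against 59.4% in the 802. For GFP over the same inputs, the 290 became 808 with library size (95.9% higher, against 53.8%), 85 with DESeq2 and 11 with all 20 libraries, and 50 to 275 with 1 input left out. Without a count filter higher IDs were 73.5% of the 268 calls. For pulldowns, the 168 became 416 with DESeq2, 262 without a count filter, 678 with all 20 libraries and 532 with only the pulldowns compared, and 13 to 22 with 1 left out; with library size 92.6% of 175 calls were higher, against 51.2%. The fit with a replicate block gave 1248, 791, 276 and 113 calls for the 4 comparisons, in the order above. Leaving out the eIF4A input of uncertain label, chosen after the data were seen, gave 1291, 680 and 207 for the 3 input comparisons. Each of the 4 IDs given by name kept its direction in 11 of 11 settings. They were chosen for large changes in these same libraries, which every setting refits, so this was close to given. DESeq2 gave none of the 4 an adjusted p. For eIF4E and GFP over the CBX1, C1 and eIF4A inputs it gave an adjusted p to 4564 and 3538 IDs. In pulldowns it did so for 7248 IDs, so its counts rest on fewer IDs than those of edgeR. Depth limits calls at low levels, where small changes were not detectable. The comparisons of gene lists and of EIF4E were not run, since IDs had no names.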
